A study of Mus musculus with 18 samples.

Results

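Chemokine ligands and their receptors were described in 3 primary mouse B cell lymphomas before, during and after a DNA-damaging treatment. A gene was taken where the array annotation gave a single symbol made of Ccl, Cxcl, Ccr or Cxcr and a number, or Xcl1, Xcr1, Cx3cl1, Cx3cr1 or a symbol starting with Ackr. This gave 53 of the 18194 named genes, 33 of them ligands and 20 receptors, and where a gene had several probe sets the one with the highest mean was read. Ccl19, Ccl21a and Cxcr1 had no probe set with that symbol alone and were not analysed here, and the same holds for Suv39h1.

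The cells came from lymph nodes of Eµ-myc transgenic mice on a C57/Bl6 background, in which the immunoglobulin heavy chain enhancer Eµ drives the oncogene Myc in B cells. All groups, untreated cells included, lacked the histone methyltransferase gene Suv39h1 and had been transduced with retroviruses for Bcl2, which blocks apoptosis, and for the fusion protein Suv39h1-ERT2, which becomes active with 4-hydroxytamoxifen (4-OHT). Each of the lymphomas 4146, 4936 and 5043 was treated in vitro for 5 days with Adriamycin (ADR), a DNA-damaging drug, and 4-OHT (ADR+4-OHT 5 d, n = 3) or with ADR alone (ADR 5 d, n = 3). Cells cultured for 14 further days without either compound were taken as outgrowth: after ADR with 4-OHT, flow cytometry separated cells of big (n = 3) and small (n = 3) morphology, and after ADR alone they were kept whole (ADR outgrowth, n = 2 with values). Untreated cells (n = 3) were the baseline, and no group received 4-OHT alone, so that the fusion protein and 4-OHT itself cannot be told apart. The 3 lymphomas are separate tumours, and p-values measure how much the differences between groups vary among them. For each gene this spread was estimated over all groups together.

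Chemokines are small secreted proteins that bind G protein-coupled receptors on leukocytes and direct their migration. Homeostatic chemokines such as Cxcl12, Cxcl13, Ccl19 and Ccl21 place B cells in bone marrow, follicles and T cell zones through Cxcr4, Cxcr5 and Ccr7. Inflammatory chemokines such as Ccl3 and Cxcl2 are made on stimulation, recruit monocytes and neutrophils, and are commonly counted in the senescence-associated secretory phenotype. Atypical receptors (Ackr) bind and remove ligands without coupling to G proteins.

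Values are the deposited log2 signals, given within a group for lymphomas 4146, 4936 and 5043 in this order, and differences are in log2 units. The median of all values was 4.86, and a gene under it was called dim. Signals of different genes depend on their probes and are not compared. The arrays labelled ADR 5 d of lymphoma 4936, big outgrowth of 5043 and small outgrowth of 5043 stood apart: their scores on the leading principal component ran from 58.5 to 66.8, against at most 5.94 on the other 14 arrays, and their signal of Xist, a transcript of female cells, exceeded the median of the lymphoma it came from by 5.70 to 5.99. On ADR+4-OHT 5 d of lymphoma 4146 Xist lay at -3.49 from that median. A named difference that turned sign or moved clearly when these 3 arrays were left out is also given without them. Of 9 B cell markers, 7 to 9 lay at or above 4.86 on every array, and none was dim throughout. In bulk samples like these, fewer cells of a type and less RNA per cell cannot be told apart.

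Of the 53 chemokine genes, 16 were at or above 4.86 on all 17 arrays. They were the CC ligands Ccl3, Ccl4, Ccl6, Ccl9, Ccl24 and Ccl25, the CXC ligands Cxcl1, Cxcl16 and Cxcl17, the membrane-bound ligand Cx3cl1, and the receptors Cxcr4, Cxcr5, Ccr7, Ackr1, Ackr2 and Ackr4. This holds for the probe set read, and not for every probe set of these genes. A further probe set each of Cxcl16 and Cx3cl1 was dim on all 17 arrays, 1 of Cxcl1 on 9 and 1 of Ackr2 on 5. Another 18 of the 53 genes were dim on all arrays, with values from 2.54 to 4.77. These dim genes include the interferon-induced ligands Cxcl9 and Cxcl11, their receptor Cxcr3, the neutrophil receptor Cxcr2, the stromal ligand Cxcl12 and the Ccr6 ligand Ccl20. The remaining 19 crossed the threshold, and 10 of them did so on enough arrays to be tested. The test was run on the 11897 genes that reached 4.86 on at least 3 arrays, 26 of them chemokine genes. A gene can pass that filter through the very arrays in which it is high, so counts over the 26 tested genes are descriptions.

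After 5 days of ADR with 4-OHT, Ccl9 rose past the threshold of the test, the 1 of 7 tested inflammatory CC ligands to do so. Ccl3, Cxcl2 and the receptor Ccr1 had differences of 2.86 to 4.87 that did not pass, while the inflammatory CC ligands Ccl2 and Ccl24 differed by 0.08 and 0.46. Receptors that guide B cells to lymphoid tissue lay within 1 log2 unit of untreated cells. The plot of inflammatory chemokines by array shows these genes in all 6 groups.

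Ccl9 encodes macrophage inflammatory protein 1 gamma, a Ccr1 ligand that attracts myeloid cells in mice. Its log2 signal was 9.51, 11.82 and 10.18 in ADR+4-OHT 5 d cells, against 6.39, 6.59 and 6.17 in untreated cells. All 3 treated arrays lay above all 3 untreated ones. The rise was 4.12 (SE 0.99, limma adjusted p = 0.0496), or 17.4-fold, and a second Ccl9 probe set gave 3.99. The adjusted p lay close to 0.05 and crossed it easily: it was 0.0199 without the 3 arrays that stood apart, and with any 1 array left out the gene passed in 5 of 17 fits and had an adjusted p of 0.0567 to 0.194 in the other 12. Those 12 fits left out ADR+4-OHT 5 d of 4936 or 5043, ADR 5 d of 5043, or any single array of the big outgrowth, small outgrowth or untreated groups.

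Ccl3 encodes macrophage inflammatory protein 1 alpha, a ligand of Ccr1. It had log2 signals of 10.65, 14.05 and 12.56 in ADR+4-OHT 5 d cells, against 7.90, 8.14 and 6.60 in untreated cells. The groups did not overlap, and every array was well above the median of all values. The difference was 4.87 (SE 1.18, adjusted p = 0.0509), or 29.3-fold, on the other side of the threshold from Ccl9 by a small margin. It passed without the lymphoma term in the model (adjusted p = 0.0316) and without the 3 arrays that stood apart (adjusted p = 0.0208). With any 1 array left out it passed in 4 of 17 fits and had an adjusted p of 0.0512 to 0.187 in the other 13. Those 4 fits left out ADR+4-OHT 5 d of 4146, ADR 5 d of 4936 or either array of ADR outgrowth.

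Cxcl2, a neutrophil chemoattractant that binds Cxcr2, had log2 signals of 6.68, 8.24 and 6.59 in ADR+4-OHT 5 d cells, against 3.18, 5.48 and 2.59 in untreated cells. The groups did not overlap, and 2 of the 3 untreated values were dim. The difference was 3.42 (SE 1.46, adjusted p = 0.226), and with dim values set to 4.86 it was at least 4.31-fold. Without the 3 arrays that stood apart, which belong to other groups, the difference stayed at 3.42 and its adjusted p was 0.0201.

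Ccr1, the receptor for Ccl3, Ccl5, Ccl6 and Ccl9 on monocytes and macrophages, had log2 signals of 5.87, 9.73 and 7.85 in ADR+4-OHT 5 d cells, against 4.62, 5.43 and 4.82 in untreated cells. The groups did not overlap, and lymphoma 4146 had the lowest treated value. The difference was 2.86 (SE 1.04, adjusted p = 0.159), at least 6.83-fold with dim values set to 4.86. Ccr1 passed only where arrays were weighted by quality (adjusted p = 0.0259) or where the 3 arrays and ADR+4-OHT 5 d of 4146 were left out (adjusted p = 0.0438). A second Ccr1 probe set was dim on 16 of 17 arrays, with means of 3.47 in ADR+4-OHT 5 d cells and 2.69 in untreated cells, so that it gives no fold.

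Several other ligands lay higher without passing. Ccl5, which attracts T cells and monocytes, had log2 signals of 7.07, 6.96 and 6.16 in ADR+4-OHT 5 d cells, against 2.46, 4.80 and 5.70 in untreated cells. Its difference was 2.41 (SE 0.89, adjusted p = 0.162), and 2 of the 3 untreated values were dim, so that with dim values set to 4.86 it was at least 3.01-fold. Ccl6, a further myeloid attractant known in mice, had 6.95, 8.77 and 7.03 in ADR+4-OHT 5 d cells, against 5.31, 6.11 and 5.49 in untreated cells, a difference of 1.95 (adjusted p = 0.302). A second Ccl6 probe set gave 1.09, with all 3 untreated values dim, or at least 1.26-fold with dim values set to 4.86. Ccl22, a Ccr4 ligand, reached 7.13 in ADR+4-OHT 5 d cells of lymphoma 4146 but 4.83 and 4.66 in those of 4936 and 5043, against 4.14, 4.41 and 4.56 in untreated cells, so 1 array carried its difference of 1.17, and the other 5 values were dim. Ccl4, closely related to Ccl3, differed by 0.80 (adjusted p = 0.514). Cxcl10 had 5.97, 4.82 and 4.78 in ADR+4-OHT 5 d cells, against 3.27, 4.50 and 5.02 in untreated cells, with 2 dim values in each group. It differed from untreated cells by 0.93 here, 1.35 in ADR 5 d and 1.71 in big outgrowth. In small and ADR outgrowth it differed by 0.42 and 1.67, and every limma adjusted p was 0.31 or more. Without the 3 arrays and ADR+4-OHT 5 d of 4146, ADR 5 d and big outgrowth differed by 0.87 and 1.11. At the lower end, the scavenger receptor Ackr2 differed by -0.50, Cxcl13 by -0.20 and Cx3cl1 by -0.17, none of which passed.

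In all, 1 of 26 tested chemokine genes was called, against 2.94% of the 11897 tested genes. At an unadjusted p under 0.05, 7 chemokine genes lay higher and 0 lower, against 8.59% and 10.6% of all tested genes. Groups did not overlap, with ADR+4-OHT 5 d higher, for 11 of the 26, and for 15.2% of all tested genes. The median difference over the 26 was 0.38, against 0.0024 over all tested genes. The plot of differences shows how few of the genes made up this spread.

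**Figure D1:**
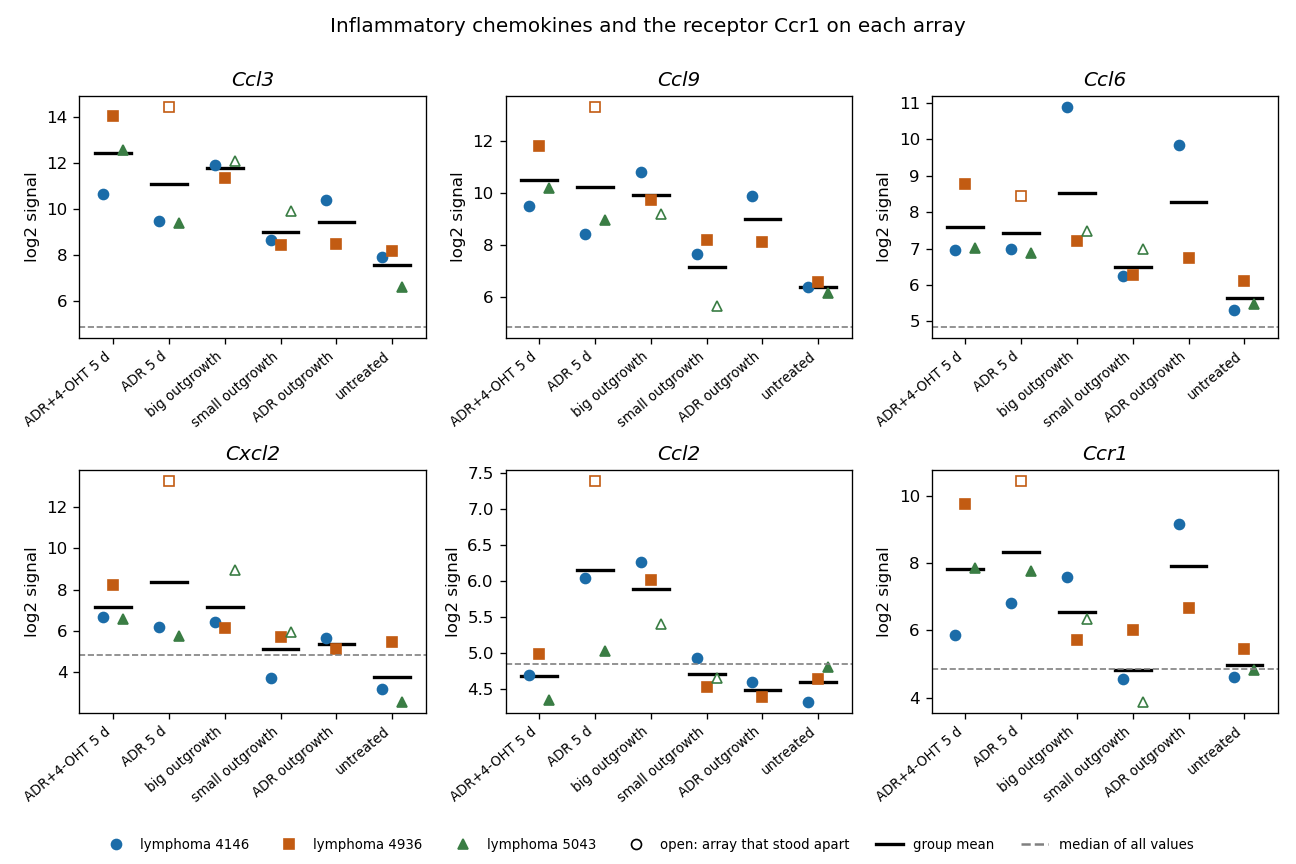
Log2 signal of Ccl3, Ccl9, Ccl6, Cxcl2, Ccl2 and Ccr1 on each of the 17 arrays by group; markers are lymphomas, bars are group means, open markers are the 3 arrays that stood apart and the dashed line is the median of all values (4.86). ADR+4-OHT 5 d lies above untreated in every panel except Ccl2, where 2 of 3 arrays with ADR+4-OHT are dim, and ADR 5 d of lymphoma 4936 is the highest array of Ccl3, Ccl9, Cxcl2, Ccl2 and Ccr1.

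The mean of macrophage markers lay above all untreated arrays in ADR+4-OHT 5 d, ADR 5 d, big outgrowth and ADR outgrowth cells. In small outgrowth it overlapped untreated cells. The mean log2 signal of 15 macrophage markers was 5.24 to 5.85 in ADR+4-OHT 5 d cells, 5.04 to 6.93 in ADR 5 d cells, 4.77 to 5.32 in big outgrowth, 4.12 to 4.70 in small outgrowth, 4.79 to 5.24 in ADR outgrowth and 4.16 to 4.58 in untreated cells. Of the 15 markers, Mrc1, Marco, Cd163, C1qa, C1qb and C1qc were dim on all arrays. Lyz2, the macrophage lysozyme, was the 1 of 9 tested markers that rose in ADR+4-OHT 5 d cells, where 2.94% of all tested genes were called. Its log2 signals were 10.17, 12.55 and 7.93, against 4.75, 5.51 and 2.79 in untreated cells. The part of the macrophage markers in the chemokine differences was not tested. The plot against macrophage markers shows that the arrays with the 2 highest marker means, ADR 5 d and ADR+4-OHT 5 d of lymphoma 4936, also had the 2 highest values of Ccl3, Ccl9 and Ccr1. Further down, the order of arrays was not shared. Big outgrowth of 4936 had a marker mean of 4.77 and Ccl3 at 11.35, while ADR outgrowth of 4936 had 4.79 and 8.48.

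**Figure D2:**
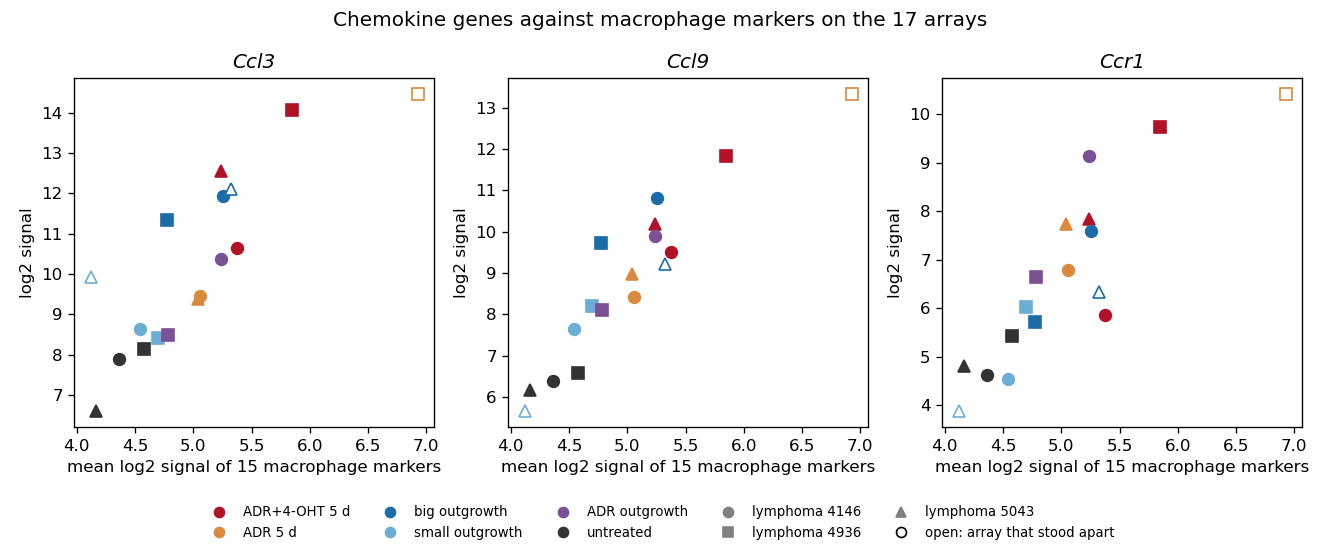
Log2 signal of Ccl3, Ccl9 and Ccr1 (vertical axes) against the mean log2 signal of 15 macrophage markers (horizontal axes) on the 17 arrays; colours are groups, marker shapes are lymphomas and open markers are the 3 arrays that stood apart. Untreated arrays sit at the lower left (marker means 4.16 to 4.58), and ADR 5 d of lymphoma 4936 at the upper right (6.93).

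The promoters of these ligands are shown because the genes are often studied as targets of NF-κB and AP-1, factors that respond to DNA damage and inflammation. Sequences are RefSeq promoters on GRCm38.p6, from 250 bases before to 50 after the gene start, found for 40 of the 53 genes and printed 5′ to 3′ on the gene's strand. Capitals mark 3 motifs, searched on both strands. Ccl9, Ccl3 and Cxcl2 are printed whole, and of Cxcl1 and Cxcl3 the 69 bases around the NF-κB match, which do not reach the start. GGAANTTCC is the core of an NF-κB consensus and reads the same on either strand. The AP-1 consensus was searched as TGANTCA, which is also symmetric. The TATA box, to which the basal transcription machinery binds, was searched as TATAAA, and in Ccl9 matches of it on opposite strands overlap.
Ccl9, chr11:83578587-83578886, minus strand: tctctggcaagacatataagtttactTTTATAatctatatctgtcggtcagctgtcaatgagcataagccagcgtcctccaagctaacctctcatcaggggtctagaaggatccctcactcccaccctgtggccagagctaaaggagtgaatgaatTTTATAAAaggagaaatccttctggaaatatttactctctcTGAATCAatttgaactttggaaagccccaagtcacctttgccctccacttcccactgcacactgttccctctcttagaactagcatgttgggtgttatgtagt
Ccl3, chr11:83649329-83649628, minus strand: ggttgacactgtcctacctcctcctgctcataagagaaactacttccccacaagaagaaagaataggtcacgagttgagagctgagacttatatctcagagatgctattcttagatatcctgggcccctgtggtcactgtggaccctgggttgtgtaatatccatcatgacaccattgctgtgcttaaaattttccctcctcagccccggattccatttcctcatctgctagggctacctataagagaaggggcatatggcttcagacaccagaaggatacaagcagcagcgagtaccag
Cxcl2, chr5:90903649-90903948, plus strand: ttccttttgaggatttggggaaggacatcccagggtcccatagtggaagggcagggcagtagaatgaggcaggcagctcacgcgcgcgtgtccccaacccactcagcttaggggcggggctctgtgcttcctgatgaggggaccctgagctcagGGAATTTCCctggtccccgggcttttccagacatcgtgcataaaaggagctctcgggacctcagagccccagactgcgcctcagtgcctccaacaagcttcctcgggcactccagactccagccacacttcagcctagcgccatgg
Cxcl1, chr5:90891145-90891213, plus strand: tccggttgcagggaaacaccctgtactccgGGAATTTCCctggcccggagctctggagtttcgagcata
Cxcl3, chr5:90785999-90786067, plus strand: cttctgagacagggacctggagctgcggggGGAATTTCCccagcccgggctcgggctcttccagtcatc

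GGAANTTCC was found in promoters of 7 of the 40 chemokine genes and in 0.928% of 32851 promoters. For all 3 motifs the chemokine count is by gene, while the percentage is by promoter. The 7 genes were Cxcl1, Cxcl2, Cxcl3, Cxcl10, Ccl1, Ccl12 and the eosinophil receptor Ccr3. In Cxcl1, Cxcl2 and Cxcl3, paralogous genes of 1 cluster on chromosome 5, the match began 70, 96 and 72 bases before the start. The AP-1 motif was found in 7 of the 40, Ccl9 among them, and in 7.81% of all promoters. The TATA box was found in 13 of the 40, Ccl9 and Cxcl3 among them, and in 13.6% of all promoters, and the Cxcl3 match lies outside the stretch printed. The Ccl3 window held none of the 3 motifs as spelled here. A match is a description of the letters, not evidence of binding in these cells.

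After 5 days of ADR alone the same ligands lay above untreated cells, but the 3 arrays differed far more among themselves. Ccl9 had log2 signals of 8.42, 13.32 and 8.97 in ADR 5 d cells, against 6.39, 6.59 and 6.17 in untreated cells. Ccl3 had 9.46, 14.46 and 9.37 in ADR 5 d cells, against 7.90, 8.14 and 6.60 in untreated cells. ADR 5 d and untreated cells did not overlap for either gene, and ADR 5 d of lymphoma 4936, one of the arrays that stood apart, was the highest array of the series for each.

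Cxcl2 showed this in its most marked form, with log2 signals of 6.20, 13.23 and 5.73 in ADR 5 d cells, against 3.18, 5.48 and 2.59 in untreated cells. Cxcl3, a related neutrophil attractant that was not tested, had 9.67 on the same array of lymphoma 4936 and 2.07 to 4.47 on the other 16. Differences from untreated cells were 4.63 for Cxcl2 (SE 1.46, adjusted p = 0.335), 3.86 for Ccl9 (SE 0.99, adjusted p = 0.291), 3.55 for Ccl3 (SE 1.18, adjusted p = 0.347) and 3.37 for Ccr1 (SE 1.04, adjusted p = 0.329). For Cxcl2 and Ccr1, each with 2 dim untreated values, the differences were at least 3.32 and 3.28 with dim values set to 4.86. Without the 3 arrays that stood apart they were 2.67, 2.37, 2.01 and 2.40, all with an adjusted p of 0.889 or more.

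Ccl2, the main monocyte attractant and the ligand of Ccr2, had log2 signals of 6.04, 7.38 and 5.04 in ADR 5 d cells, against 4.33, 4.64 and 4.82 in untreated cells. All untreated values were dim and all ADR 5 d values were above 4.86. The difference was 1.56 (SE 0.40, adjusted p = 0.291), at least 2.46-fold with dim values set to 4.86, and 0.97 without the 3 arrays. Its neighbour Ccl7, not tested, had 4.53, 5.75 and 3.97 in ADR 5 d cells, against 3.61, 3.54 and 3.80 in untreated cells. All of these were dim but the 5.75 of lymphoma 4936, on an array that stood apart. Fibroblast and stromal markers lay higher with ADR alone too: their mean over 15 genes was 5.41 to 6.43 in ADR 5 d cells, against 4.38 to 4.72 in untreated cells. Of 9 tested markers 0 passed and 8 were higher at an unadjusted p under 0.05, against 5.96% of all tested genes. The part of these stromal markers in the chemokine differences was not tested.

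The lower end of this comparison held the receptors Ackr2 (-0.93), Cxcr5 (-0.57) and Cxcr4 (-0.48), each with an adjusted p of 0.631 or more. For each of these receptors the lowest ADR 5 d value was that of lymphoma 4936, on the array that stood apart. Without the 3 arrays the differences were -0.20, 0.19 and -0.18. No chemokine gene was called by limma, as was true of 0% of all tested genes, while 5 chemokine genes lay higher and 0 lower at an unadjusted p under 0.05, against 5.96% and 5.37% of all genes. No alternative setting called a chemokine gene here, and groups did not overlap, with ADR 5 d higher, for 9 of 26 and for 11.8% of all genes.

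**Figure D3:**
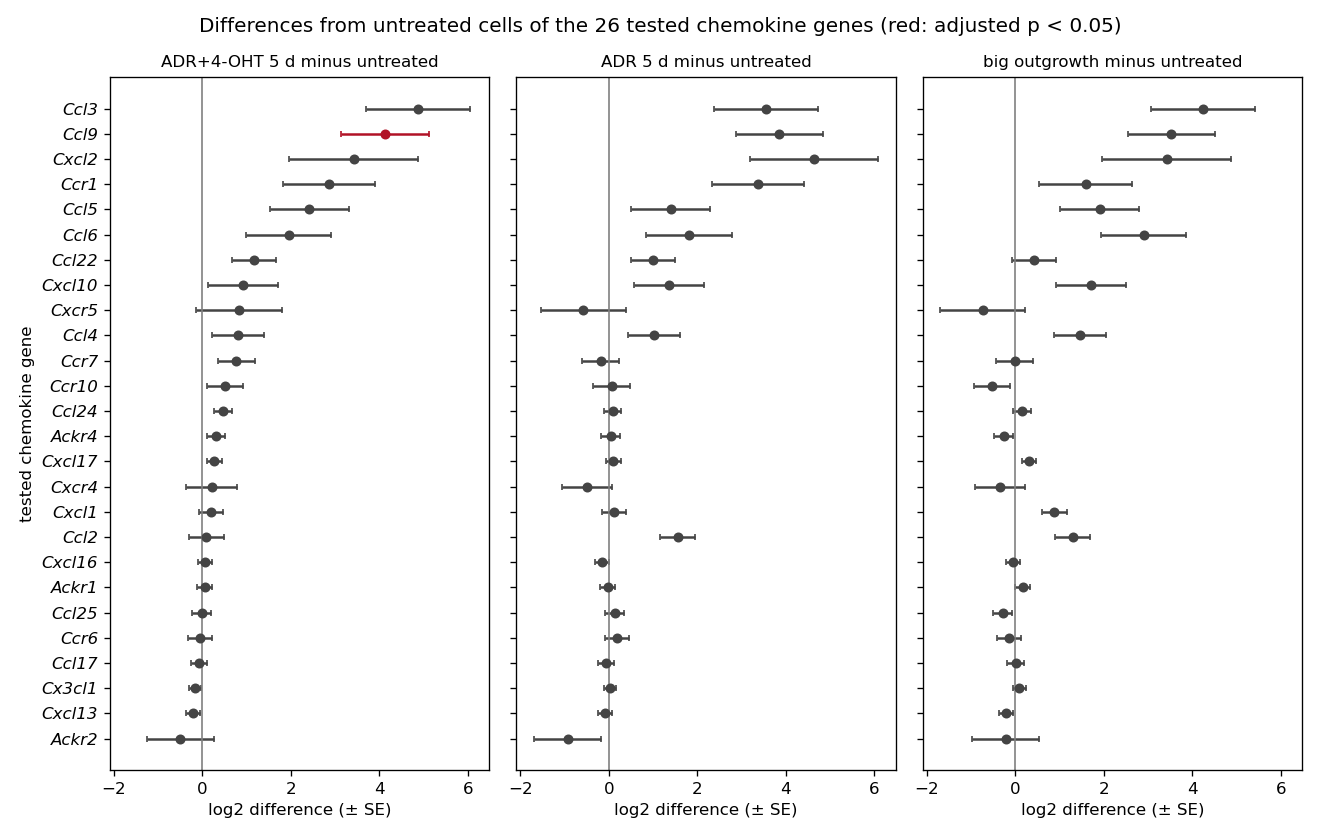
Log2 difference from untreated cells, with its SE, of the 26 tested chemokine genes in ADR+4-OHT 5 d, ADR 5 d and big outgrowth cells (n = 3 arrays each), in the order of the left panel. Ccl9 in ADR+4-OHT 5 d (4.12, red) is the 1 value that passed, Ccl3, Cxcl2 and Ccl9 lead all 3 panels, and Ccl2 is near 0 in the left panel (0.08) but at 1.56 with ADR alone and 1.30 in big outgrowth.

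Setting ADR+4-OHT 5 d against ADR 5 d compares ADR-treated cells with and without 4-OHT, which activates the fusion protein. No chemokine gene was called, as was true of 0% of all tested genes, and no alternative setting called one. Ccl2 lay lower with 4-OHT in all 3 lymphomas. Its log2 signals were 4.70, 4.99 and 4.35 in ADR+4-OHT 5 d cells, against 6.04, 7.38 and 5.04 in ADR 5 d cells. The groups did not overlap, and 2 of the 3 values with 4-OHT were dim. The difference was -1.47 (SE 0.40, adjusted p = 0.221) and -0.88 without the 3 arrays (adjusted p = 0.339). The mean of the fibroblast and stromal markers was 4.77 to 5.29 in ADR+4-OHT 5 d cells, against 5.41 to 6.43 in ADR 5 d cells. Of the 9 tested, 0 passed and 4 were lower at an unadjusted p under 0.05, against 7.6% of all tested genes. The part of these markers in the Ccl2 difference was not tested.

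In the other direction, Cxcr5, the follicle-homing receptor of B cells, had log2 signals of 9.82, 9.32 and 9.11 in ADR+4-OHT 5 d cells, against 8.54, 6.47 and 9.04 in ADR 5 d cells. Its difference was 1.40 (SE 0.97, adjusted p = 0.571) and 0.63 without the 3 arrays. Ccr7, the receptor that directs lymphocytes to T cell zones, had 7.82, 6.36 and 7.57 in ADR+4-OHT 5 d cells, against 5.77, 6.87 and 6.26 in ADR 5 d cells. It lay higher in lymphomas 4146 and 5043 and lower in 4936, a difference of 0.95 (SE 0.42, adjusted p = 0.381).

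The inflammatory ligands and the receptor Ccr1 had no common direction between the 2 treatments. Ccl3 differed by 1.32, Ccl5 by 1.02, Ccl9 by 0.27, Ccr1 by -0.50 and Cxcl2 by -1.22. Each of Ccl3, Ccl9 and Cxcl2 lay higher with 4-OHT in lymphomas 4146 and 5043 and lower in 4936, where the ADR 5 d array stood apart. Without the 3 arrays these differences were 2.87 for Ccl3, 1.76 for Ccl9, 0.46 for Ccr1 and 0.75 for Cxcl2, with adjusted p-values of 0.326, 0.408, 0.904 and 0.684, so that the last 2 turned sign. At an unadjusted p under 0.05, 1 chemokine gene lay higher (Ccr7) and 1 lower (Ccl2), against 4.93% and 7.6% of all genes. With 4-OHT all arrays lay above all ADR 5 d arrays for 2 of 26 (Ccl24 and Cxcr5) and for 9.01% of all genes.

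In big outgrowth cells, 14 days after the compounds were removed, no chemokine gene was called against untreated cells, where 0.412% of all genes were. Ccl3, Ccl9, Ccl6 and Ccl2 nevertheless lay above untreated cells on all 3 big outgrowth arrays, while Ccl24 differed by 0.16. Ccl3 had log2 signals of 11.92, 11.35 and 12.10 in big outgrowth, 8.65, 8.41 and 9.92 in small outgrowth and 7.90, 8.14 and 6.60 in untreated cells. The 3 groups formed separate ranges in this order.

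Ccl9 had 10.81, 9.73 and 9.21 in big outgrowth, 7.65, 8.21 and 5.66 in small outgrowth and 6.39, 6.59 and 6.17 in untreated cells. Big outgrowth lay above both other groups on every array, and small outgrowth overlapped untreated cells. Ccl6 had 10.90, 7.21 and 7.50 in big outgrowth, 6.24, 6.28 and 6.98 in small outgrowth and 5.31, 6.11 and 5.49 in untreated cells, again with no overlap between groups. Ccl2 had 6.26, 6.02 and 5.40 in big outgrowth, 4.93, 4.53 and 4.66 in small outgrowth and 4.33, 4.64 and 4.82 in untreated cells, so that it was at or above 4.86 on all big arrays and on 1 array of the other 2 groups together.

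Against untreated cells, big outgrowth differed by 4.24 for Ccl3 (SE 1.18, adjusted p = 0.132), 3.53 for Ccl9 (SE 0.99, adjusted p = 0.133), 3.42 for Cxcl2 (SE 1.46, adjusted p = 0.278), 2.90 for Ccl6 (SE 0.97, adjusted p = 0.186) and 1.30 for Ccl2 (SE 0.40, adjusted p = 0.157). Cxcl2 depended on the big outgrowth array of lymphoma 5043 (8.96, against 6.42 and 6.14 for the other two) and differed by 2.12 without the 3 arrays. With dim values set to 4.86, Cxcl2 and Ccl2 differed at least 4.32-fold and 2.05-fold. A second Ccl6 probe set, dim on all 3 untreated arrays, gave 1.90, or at least 2.21-fold. At the lower end were Cxcr5 (-0.74), the skin-homing receptor Ccr10 (-0.52) and Cxcr4 (-0.35), which without the 3 arrays were at 0.05, -0.51 and 0.18. At an unadjusted p under 0.05, 7 chemokine genes lay higher and 0 lower, against 6.4% and 9.89% of all genes. Groups did not overlap, with big outgrowth higher, for 11 of 26 and for 13.1% of all genes. Without ADR 5 d of lymphoma 4936, an array of another group, Ccl2, Ccl3 and Ccl9 passed, with adjusted p-values of 0.0471, 0.0454 and 0.0471. With arrays weighted by quality 5 passed, Ccl2, Ccl3, Ccl6, Ccl9 and Cxcl1.

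Cxcl1, another neutrophil attractant, had probe sets that disagreed on this comparison. The probe set used here gave 7.10, 7.78 and 7.70 in big outgrowth, against 6.33, 6.85 and 6.75 in untreated cells, a difference of 0.89 (adjusted p = 0.164). A second probe set gave 6.68, 7.99 and 6.16 in big outgrowth, against 2.78, 3.97 and 4.79 in untreated cells, all 3 of them dim. Its difference of 3.10, at least 4.25-fold with dim values set to 4.86, passed when every probe set was fitted on its own (adjusted p = 0.0215), and so did the remaining probe set, at 1.81 (adjusted p = 0.0418). The probe set used was the brightest of the 3 and is of the kind that can bind related transcripts.

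Between big and small outgrowth, no chemokine gene was called, as was true of 0% of all tested genes. Differences were 2.80 for Ccl3 (SE 1.18, adjusted p = 0.425), 2.74 for Ccl9 (SE 0.99, adjusted p = 0.354) and 2.05 for Cxcl2 (SE 1.46, adjusted p = 0.691), and at the lower end -0.32 for Cxcr5, -0.26 for Ackr4 and -0.18 for Cxcl16. Without the 3 arrays Cxcl2, Cxcr5 and Cxcl16 differed by 1.56, -0.99 and -0.27. Fitted on these 6 arrays alone, Ccl3 passed (adjusted p = 0.0447). At an unadjusted p under 0.05, 4 chemokine genes lay higher and 0 lower, against 4.62% and 5.82% of all genes. Groups did not overlap, with big outgrowth higher, for 7 of 26 (Ccl2, Ccl3, Ccl4, Ccl5, Ccl6, Ccl9 and Cxcl2) and for 8.99% of all tested genes.

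Fibroblast and stromal markers also lay highest in big outgrowth. Their mean log2 signal over 15 genes was 6.18 to 6.97 in big outgrowth, 4.85 to 5.31 in small outgrowth and 4.38 to 4.72 in untreated cells. Against untreated cells, 5 of 9 tested markers rose in big outgrowth, where 0.412% of all tested genes were called. Pdgfrb and Postn were dim on all arrays. The part of these markers in the chemokine differences was not tested.

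Small outgrowth against untreated cells gave no call among chemokine genes, and 0% of all tested genes were called. The 3 highest differences were 1.44 for Ccl3 (SE 1.18, adjusted p = 0.745), 1.38 for Cxcl2 (SE 1.46, adjusted p = 0.805) and 1.06 for Ccl5 (SE 0.89, adjusted p = 0.752). Cxcl2 and Ccl5 each had 2 dim untreated values, and Cxcl2 was also dim on 1 small outgrowth array. Their differences thus rest in part on signals under the median of all values. The 3 lowest were -0.72 for Ackr2, -0.46 for the gut-homing ligand Ccl25 and -0.41 for Cxcr5. The small outgrowth array of lymphoma 5043 stood apart, and without the 3 arrays Ccl3 differed by 0.82, Cxcl2 by 0.57, Ackr2 by 0.10, Ccl25 by -0.17 and Cxcr5 by 1.04, so that Ackr2 and Cxcr5 turned sign. At an unadjusted p under 0.05, 1 chemokine gene lay higher, the mucosal ligand Cxcl17, with a difference of 0.42, and 0 lay lower, against 3.4% and 4.9% of all genes. All small outgrowth arrays lay above all untreated ones for 3 of 26 (Ccl3, Ccl6 and Cxcl17) and for 9.1% of all genes.

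ADR outgrowth, with 2 arrays, was again without a call, as were 0% of all tested genes. Ccr1 had 9.14 and 6.66 in ADR outgrowth of lymphomas 4146 and 4936, against 4.62 and 5.43 in their untreated cells, a difference of 2.76 (SE 1.19, adjusted p = 0.999). Ccl6 had 9.84 and 6.74 in ADR outgrowth, against 5.31 and 6.11 in untreated cells of the same lymphomas. Ccl5 had 8.43 and 4.67 in ADR outgrowth, against 2.46 and 4.80 in untreated cells of these lymphomas, so that only 4146 lay higher, and 1 of these 2 treated values and both untreated ones were dim. On that array of 4146 the mean of 10 T and NK cell markers was 5.07, the highest of the 17 arrays, and that of 9 B cell markers was 6.66, the lowest. Of the T and NK cell markers only Cd3g (6.23) and Cd3d (6.10) had their highest value there, and Cd3e was dim (4.57). The mean of 15 macrophage markers on this array was 5.24, against 4.36 in untreated cells of 4146. Differences at the lower end were -1.20 for Ccr7, -0.85 for Cxcr5 and -0.45 for Cxcl1, and Cxcr5 differed by -0.48 without the 3 arrays. B cell markers lay lower as well, with a median difference of -0.74 over 8 tested markers. Of these, 0 passed and 3 were lower at an unadjusted p under 0.05, against 1.94% of all tested genes. The part of these markers in the chemokine differences was not tested. At an unadjusted p under 0.05, 3 chemokine genes lay higher (Ccl5, Ccl6 and Ccr1) and 1 lower (Ccr7), against 2.55% and 1.94% of all genes. Both ADR outgrowth arrays lay above all untreated ones for 5 of 26 (Ackr4, Ccl3, Ccl6, Ccl9 and Ccr1) and for 11.3% of all genes.

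Small outgrowth against ADR outgrowth compares cells that had received ADR with and without 4-OHT. It also sets sorted small cells against cells kept whole, and sorting and 4-OHT cannot be told apart here. Ccr1 had log2 signals of 4.55, 6.02 and 3.89 in small outgrowth, against 9.14 and 6.66 in ADR outgrowth, with no overlap. The difference was -2.90 (SE 1.19, adjusted p = 0.338). Ccl6 and Ccl9 differed by -1.61 and -1.43, and Ccr7, Cxcl1 and Cxcr5 by 0.94, 0.71 and 0.43, the last of them by 1.52 without the 3 arrays. Of the 8 tested B cell markers 0 passed and 3 were higher at an unadjusted p under 0.05, against 5.08% of all tested genes. No chemokine gene was called, as was true of 0% of all genes, and 1 gene lay higher (Cxcl1) and 1 lower (Ccr1) at an unadjusted p under 0.05, against 5.08% and 8.36% of all genes. Groups did not overlap, with small outgrowth higher, for 3 of 26 (Cxcl1, Cxcl16 and Cxcl17) and for 15.8% of all genes.

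The CC ligand genes of chromosome 11 lie in 2 blocks, which allows them to be read in map order. The first block spans chr11:82035577-82179812 (GRCm38.p6) and holds Ccl2, Ccl7, Ccl11, Ccl12, Ccl8 and Ccl1, known for binding Ccr2, Ccr3 or Ccr8. The second, 1345965 bases further on at chr11:83525778-83664683, holds Ccl5, Ccl9, Ccl6, Ccl3 and Ccl4, most of which are known as ligands of Ccr1. After ADR with 4-OHT, mean differences from untreated cells of the same lymphoma ran from -0.13 to 0.26 over the 6 genes of the first block and from 0.80 to 4.87 over the 5 genes of the second. In big outgrowth they ran from 0.0037 to 1.30 in the first block and from 1.46 to 4.24 in the second. With ADR alone Ccl4 of the second block differed by 1.03, and by 0.20 without the 3 arrays. Of the first block only Ccl2 was tested. Ccl11, Ccl12 and Ccl1 were dim on all arrays, and Ccl7 and Ccl8 each on 16 of 17. The differences of this block are thus those of genes near the lower end of the signal.

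**Figure D4:**
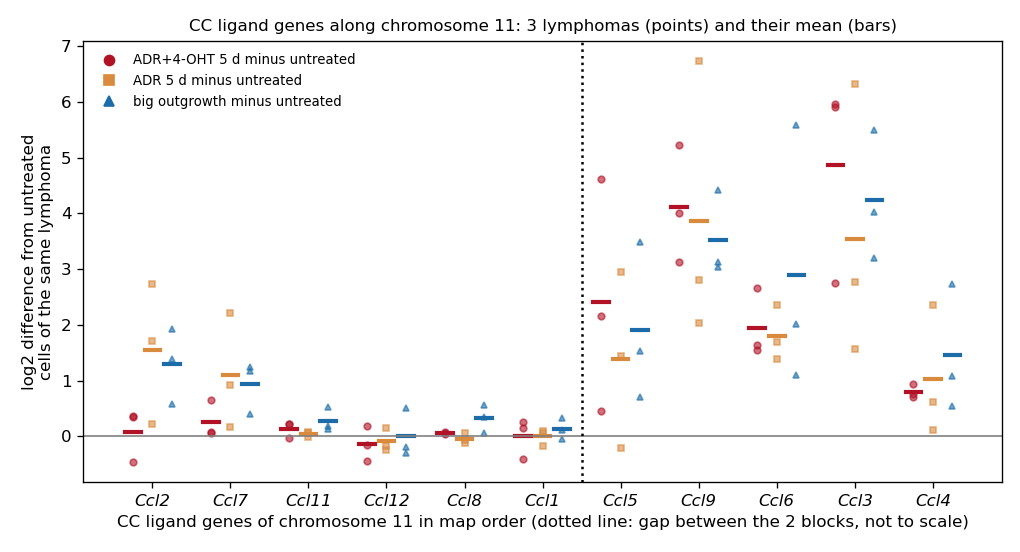
Log2 difference from untreated cells of the same lymphoma for 11 CC ligand genes of chromosome 11 in map order; points are 3 lymphomas, bars their mean, and the dotted line separates the blocks. Ccl5, Ccl9, Ccl6, Ccl3 and Ccl4 have means of 0.80 or more in all 3 groups shown, while of the first block Ccl2 and Ccl7 lie at 0.94 or more with ADR alone and in big outgrowth but not with ADR and 4-OHT.

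The homing axes of B cells were read through their receptors, because ligands were near or under the threshold. Cxcl12, the ligand of Cxcr4 and Ackr3, was dim on all arrays (3.40 to 4.23), and so was Ccl20, the ligand of Ccr6 (4.51 to 4.76). Cxcl13, the ligand of Cxcr5 made by follicular stroma, ran from 4.59 to 5.16. Receptor signals were 7.04 to 9.59 for Cxcr4, 5.28 to 9.82 for Cxcr5, 4.91 to 7.82 for Ccr7 and 4.42 to 5.46 for Ccr6. Ackr3, a scavenger of Cxcl12, was dim on all arrays but ADR 5 d of lymphoma 4936 (5.04) and big outgrowth of 4936 (6.72).

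Cxcr5 was 9.82, 9.32 and 9.11 in ADR+4-OHT 5 d cells, against 8.26, 8.85 and 8.66 in untreated cells, with no overlap and a difference of 0.83 (SE 0.97, adjusted p = 0.717). On the 3 arrays that stood apart it was 6.47 (ADR 5 d of 4936), 6.28 (big outgrowth of 5043) and 5.28 (small outgrowth of 5043), and on the other 14 it was 8.01 or more. Cxcr4, which retains B cell precursors in bone marrow, had its 3 lowest values on these arrays too, 7.52, 7.34 and 7.04, and so had Ackr2, a scavenger of inflammatory CC ligands, with 5.79, 7.15 and 6.44. Without them, Cxcr5 differed by 0.19 in ADR 5 d, by 0.05 in big outgrowth and by 1.04 in small outgrowth, against untreated cells.

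Ccr7 had its highest values in ADR+4-OHT 5 d cells (7.82 in 4146 and 7.57 in 5043) while small outgrowth had 6.83, 6.14 and 5.68 and ADR outgrowth 5.71 and 4.91, against 6.21, 6.88 and 6.36 in untreated cells. Neither the difference of 0.77 for ADR+4-OHT 5 d (SE 0.42, adjusted p = 0.353) nor that of -1.20 for ADR outgrowth (SE 0.48, adjusted p = 0.999) passed. Ccr6 overlapped between groups in all 8 comparisons, with an adjusted p of 0.766 or more.

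**Figure D5:**
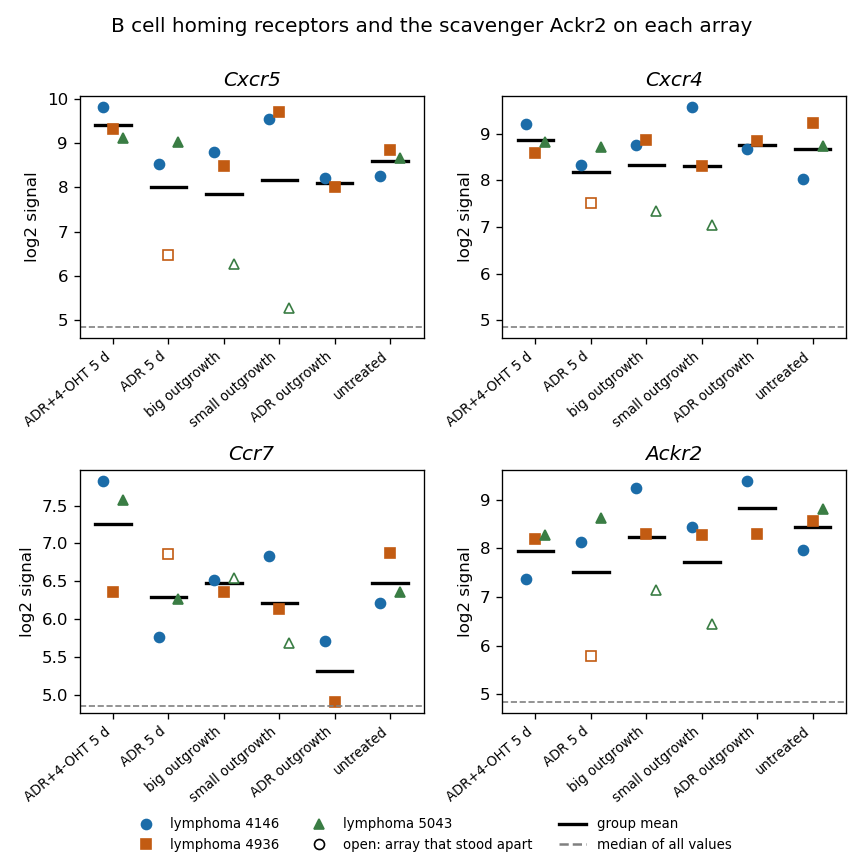
Log2 signal of Cxcr5, Cxcr4, Ccr7 and Ackr2 on each array by group; markers are lymphomas, bars are group means, open markers are the 3 arrays that stood apart and the dashed line is the median of all values (4.86). The open markers are the 3 lowest values of Cxcr5, Cxcr4 and Ackr2 but not of Ccr7, whose lowest value is 4.91 in ADR outgrowth of lymphoma 4936.

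Downstream of the receptors, a list of 66 genes of chemokine signalling and B cell migration was read, of which 62 were named on the array and 56 tested. In ADR+4-OHT 5 d against untreated cells 1 rose and 2 fell (2.94% of all tested genes were called), and the median difference was 0.14, against 0.0024 over all tested genes. Rasgrp2, the exchange factor that switches Rap1 and integrins on after a chemokine signal, fell: its log2 signals were 7.47, 6.58 and 7.47 in ADR+4-OHT 5 d cells, against 9.80, 9.89 and 10.37 in untreated cells (difference -2.85, SE 0.56, adjusted p = 0.0272). S1pr1, the receptor by which lymphocytes leave lymphoid tissue, fell to 6.46, 6.76 and 6.05 in ADR+4-OHT 5 d cells, against 7.73, 8.82 and 7.05 in untreated cells (difference -1.45, SE 0.31, adjusted p = 0.0332).

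Gnaq, a G protein alpha subunit, rose: it was 9.55, 8.60 and 9.27 in ADR+4-OHT 5 d cells, against 7.73, 8.16 and 7.99 in untreated cells (difference 1.18, SE 0.24, adjusted p = 0.0295). None of these 3 genes overlapped between the groups. Their calls depended on the arrays used. With an array or a lymphoma left out, 0 to 546 of all genes were called, so that these 3 did not always pass. In the other 7 comparisons limma called 0 of the 56, where 0% to 0.412% of all tested genes were called. At an unadjusted p under 0.05 as many as 8 lay higher (big outgrowth against untreated cells), against 6.4% of all tested genes. As many as 7 lay lower (small against ADR outgrowth), against 8.36% of all tested genes. For ADR 5 d against untreated cells, S1pr1 differed by -1.17 and Rasgrp2 by -1.80, with adjusted p-values of 0.291 and 0.329. For small against ADR outgrowth, S1pr1 had 8.22, 7.98 and 7.31 in small outgrowth, against 5.97 and 6.71 in ADR outgrowth, a difference of 1.70 (adjusted p = 0.243).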

How the data were processed

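Total RNA was hybridised to Affymetrix mouse arrays of 45101 probe sets, and the authors deposited log2 signals made, per the submitters' processing notes, with RMA and Partek, whose versions and order are not given in the sources used here. For every probe set the 3 lymphomas had equal medians, so an offset between them had been removed before deposit. Of 18 value columns 17 were used, since the column of ADR outgrowth of lymphoma 5043 was empty and its label reports a failed quality control.

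GEO's platform annotation gave the gene names (34958 probe sets with 1 symbol, 932 with several and 9211 not listed), and the probe set of a gene with the highest mean was read. Genes at or above 4.86, the median of all values, on at least 3 arrays were tested with limma 3.58.1 in R 4.3.3, modelling the 6 groups with lymphoma as a block, and Benjamini-Hochberg adjustment over 11897 genes in each comparison at 0.05. The fit had 9 residual and 2.53 prior degrees of freedom, and the method was tested on simulated data. The lymphoma numbers in the titles pair the arrays. The values cannot check this, because the medians had been removed: group-centred values had a median correlation of -0.117 within a lymphoma (40 pairs) and 0.058 between lymphomas and groups (80 pairs).

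The chemokine genes, the other lists and the named genes were chosen with earlier results of these data known. Named were called genes, the 3 highest and 3 lowest differences of each comparison, the homing axes and the commonly listed senescence-associated chemokines. All 53 genes matched the GRCm38.p6 gene table by gene ID. Comparisons with untreated cells share the untreated arrays. No depth can be given for arrays, whose number sets the precision. Alternatives were a fit without the lymphoma block, other filters, other probe set summaries, quantile normalization, centring of arrays on their medians, robust fitting with a variance trend, array weights, the compared groups alone, and leaving out arrays or lymphomas.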

Additional observations from a re-analysis of the deposited data

How the results depend on the processing

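With 2 or 3 arrays in a group, calls near the threshold moved with the processing. For ADR+4-OHT 5 d against untreated cells, 1 chemokine gene was called (Ccl9). The count was 2 without the replicate block (no pairing by lymphoma), 2 with the 60th percentile filter and 2 with quantile normalization, with Ccl3 joining Ccl9 each time. It was 3 with array weights, 3 without the 3 arrays that stood apart and 4 without these and ADR+4-OHT 5 d of lymphoma 4146. It was 0 with no filter, with the mean over probe sets, with every probe set on its own, with median centring, with a variance trend and robust fitting and with the 2 groups alone. Leaving out a lymphoma or an array gave 0 to 2. For big outgrowth against untreated cells, the count of 0 became 1 (Cxcl1) with the mean over probe sets and with every probe set, 5 with array weights and 1 (Ccl3) without 4 arrays, and leaving out a lymphoma or an array gave 0 to 3. For big against small outgrowth it became 1 (Ccl3) with the 2 groups alone. The cause was not tested. In the other 5 comparisons no setting called a chemokine gene, the fit without the replicate block included. No called value changed sign. Over all genes, the count of 350 for ADR+4-OHT 5 d against untreated cells ranged from 0 to 1304 over the settings, and that of 49 for big outgrowth against untreated cells from 0 to 1117. The called genes of the marker and signalling lists are among these, so that they did not pass in every setting.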
